A study of Caenorhabditis elegans with 2 samples.

Results

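A peak of RNA polymerase II was placed here when its summit lay close to the end of 1 protein-coding gene and, at the same time, close to the start of a protein-coding gene. The peaks came from ChIP-seq, in which DNA bound by a protein is pulled down with an antibody and sequenced, here for AMA-1, the large subunit of that polymerase. The material was intact late embryos of the N2 wild-type strain of Caenorhabditis elegans, both sexes pooled, with age listed as unknown. There were 2 biological replicates of this 1 condition, and no transgene, mutation or treatment is named in the labels. Whole embryos mix all tissues, so no cell type can be assigned to a peak, and no input or control file was analysed here. Of the 30000 peaks in the authors' relaxed list pooled over both replicates, the 5000 with the highest signal value were taken, and 4406 of these were on the autosomes, chromosomes I to V of build ce11. The members were chosen by these heights and by summit position, with a summit within 250 bp of an annotated start and within 250 bp of an annotated end of protein-coding genes in Ensembl release 115 and over 250 bp from any snRNA, snoRNA, miRNA or tRNA gene. That gave 321 peaks, after 3 further summits near such small RNA genes were left out. In 297 of the 321 the end belonged to a gene and the start to the next gene downstream on the same strand, and these are called tandem members. The other members were 19 peaks with both the start and the end of 1 short gene in the window, 3 between genes on opposite strands and 2 at a gene nested in another on the same strand.

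Closely spaced genes on 1 strand are common in C. elegans, where many are transcribed as operons, from 1 promoter into 1 long precursor RNA. The precursor is cut into separate messages by forming the 3' end of the upstream message and splicing a short leader RNA, often SL2, to the start of the downstream one, at an acceptor site whose usual letters end in TTTCAG. The annotated start of such a downstream gene is therefore often a splice site and not the place where polymerase begins, and polymerase has to pass the upstream gene's end to reach it. Signals for 3' end formation, among them the hexamer AATAAA, lie just before the point where the upstream message is cut. An annotation of operons or of leader splice sites was not used here, so the tandem pairs are neighbours by position, and which of them are operons is not stated.

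The DNA between the genes is printed for some tandem members, though the summit itself often lay outside it. The 6 gaps below are examples of at most 250 bp, 4 of them from the highest of the pooled list and 2 from those high in both replicates. Of the latter, mutd-1/cyn-12 was at pooled rank 1244. Higher junctions with gaps of such length, among them K08D12.3/rpi-2 and dnj-13/F54D5.7, are not printed, so the 6 give no share for members at large. Each is the whole gap, read from the RefSeq genome of build ce11 on the strand of the genes, 5' to 3', from the base after the upstream gene's annotated end to the base before the downstream gene's annotated start, and capitals mark TTTCAG on that strand.
hrpa-1/F42A6.6: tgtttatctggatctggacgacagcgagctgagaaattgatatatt
Y17G7B.20/Y17G7B.21: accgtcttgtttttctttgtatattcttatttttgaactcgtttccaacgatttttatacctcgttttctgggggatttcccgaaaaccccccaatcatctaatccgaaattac
pptr-1/W08G11.3: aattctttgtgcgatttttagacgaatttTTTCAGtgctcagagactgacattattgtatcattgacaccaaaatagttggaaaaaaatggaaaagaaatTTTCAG
mep-1/M04B2.2: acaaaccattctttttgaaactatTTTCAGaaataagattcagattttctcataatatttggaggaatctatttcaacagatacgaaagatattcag
tbb-1/K01G5.8: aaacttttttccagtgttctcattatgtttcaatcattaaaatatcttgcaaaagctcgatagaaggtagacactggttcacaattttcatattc
mutd-1/cyn-12: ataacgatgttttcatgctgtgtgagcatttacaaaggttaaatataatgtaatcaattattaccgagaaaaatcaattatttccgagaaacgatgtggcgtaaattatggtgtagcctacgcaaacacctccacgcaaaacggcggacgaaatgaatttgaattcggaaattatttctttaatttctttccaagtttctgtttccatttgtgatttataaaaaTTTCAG
The gap of hrpa-1 is chrIV:3336874-3336919 on the minus strand, and that of Y17G7B.20 is chrII:11977662-11977775 on the minus strand. The gap of pptr-1 is chrV:16367575-16367680 on the plus strand, that of mep-1 is chrIV:11527955-11528051 on the plus strand, that of tbb-1 is chrIII:10740773-10740867 on the minus strand, and that of mutd-1 is chrIV:7133218-7133447 on the minus strand. The gaps were 46, 114, 106, 97, 95 and 230 bp long in the order printed. In the pooled list the summits of hrpa-1, Y17G7B.20, pptr-1, mep-1 and tbb-1 lay past these gaps. They were 68, 92, 89, 74 and 136 bp inside the downstream gene, in that order. TTTCAG ended exactly at the base before W08G11.3 and before cyn-12, with a second copy inside the pptr-1 gap. In the mep-1 gap it lay 67 bp before the annotated start of M04B2.2. The other 3 gaps held none, and no gap of the 6 held AATAAA, whose usual place is in the upstream gene itself. The gaps differed in base content, with 32.6% T between hrpa-1 and F42A6.6 and 41.2% T between Y17G7B.20 and Y17G7B.21.

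Tandem members were a small share of the places where they could have been. The annotation held 3667 autosomal tandem neighbours whose end and start were at most 500 bp apart, and 293 of them (7.99%) held a member, with 4 holding 2 members each. Members were more frequent among higher peaks. They made up 99 of the 897 autosomal peaks (11%) among the 1000 highest, 70 of 874 (8.01%) in the next 1000, then 54 of 879 (6.14%), 53 of 888 (5.97%) and 45 of 868 (5.18%) in the last. Their pooled signal value, a caller score with no stated scale, ran from 24.5 to 111.7 with a median of 32.6. Such heights were not particular to members. The median pooled rank was 1935 for members, 2006.5 for autosomal peaks near an end but no start, and 2498.5 over all autosomal peaks. The threshold fell in a flat stretch of the list, since the signal was 24.46 at rank 5000. Just inside it were dhgd-1/Y62F5A.9 at rank 4988 and pro-1/R166.3 at rank 4966, and just outside it were F18E3.12 at rank 5001 and mrpl-45/dss-1 at rank 5022. At the window's edge, npp-18/pgm-2 was kept with its farther gene boundary 250 bp from the summit and Y73F8A.27/Y73F8A.26 was not, at 251 bp.

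The replicates did not give these peaks equally. Signal values of the lists are not on 1 scale, so ranks are compared. Of the 321 members, 277 (86.3%, exact 95% interval 82 to 89.9%) were matched, by an overlap of 1 bp or more, in the 5000 highest of replicate 1, where all 4406 autosomal peaks gave 75.7%. In replicate 2 it was 119 members (37.1%, 31.8 to 42.6%) against 42.6% of all autosomal peaks. In both replicates it was 94 members (29.3%, 24.4 to 34.6%), close to the 27.8% of all autosomal peaks. The pooled list was made from both replicates, so these shares are not independent of the choice of members, and the intervals cover counting error only. The rank was better in replicate 1 for 258 members and in replicate 2 for 63, and 80 members had no peak at all in replicate 2 against 3 in replicate 1. Over all 4406 autosomal peaks the ranks also leaned to replicate 1, with 2993 better there and 1406 in the other library, where 785 lacked a peak against 60 in replicate 1. The members' median rank was 1546.5 in replicate 1 over 318 with a peak and 5186 in replicate 2 over 241, and the medians of all autosomal peaks were 2556.5 and 4604. Peaks near gene ends only leaned to replicate 1 in like measure, with 492 of 592 ranked better there and 97 in replicate 2, whereas the 575 near starts only divided 350 to 224. The 44 members in the authors' list thresholded by the irreproducible discovery rate (IDR; 13.7%, against 9.56% of all autosomal peaks) are exactly those within the 476 highest ranks, the length of that list, so this share only restates height.

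**Figure D1:**
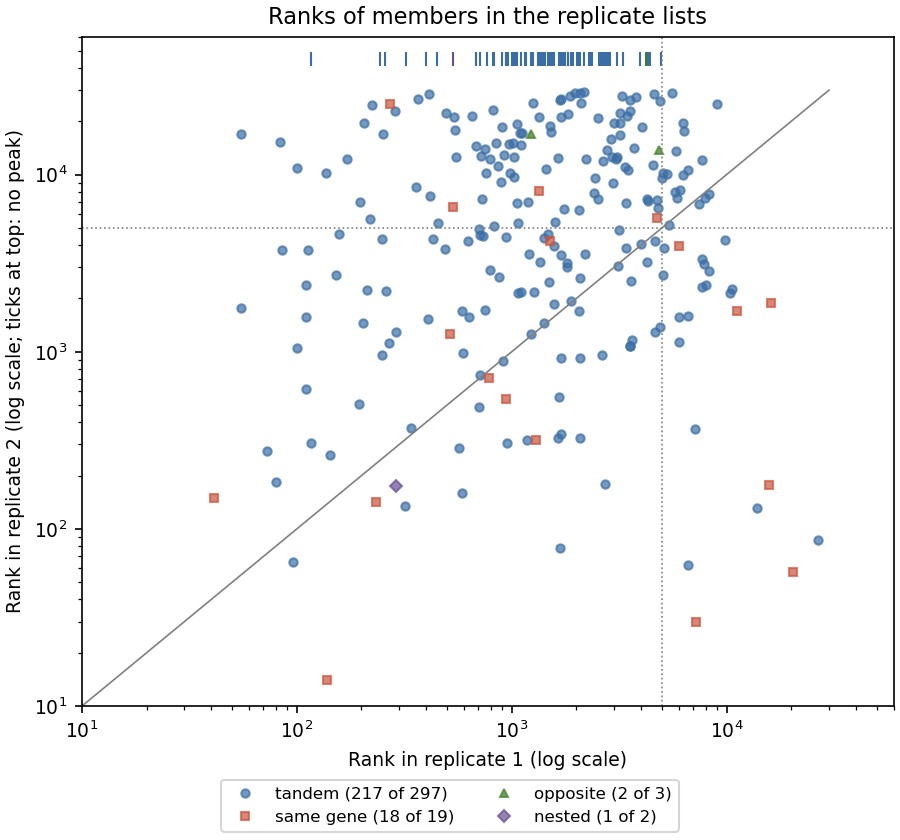
Rank of each member in replicate 1 (horizontal, log scale) and in replicate 2 (vertical, log scale), coloured by class, with dotted lines at rank 5000, a diagonal of equal ranks, and ticks at the top for members with a peak in replicate 1 but none in replicate 2. Most of the tandem members lie above the diagonal, where replicate 1 ranks them higher, and 23 members are within the 1000 highest of both, a count not made over all autosomal peaks.

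Of the 321 members, 23 were within the 1000 highest of both replicates, the tandem ones below among them. The same count was not made over all autosomal peaks, so 23 cannot say whether members stand out. The junction of mnk-1, a protein kinase gene, and pro-1, which encodes a WD-repeat protein of ribosome production, was the tandem member highest in both replicates together, at rank 86 in the pooled list (signal 88.3), 96 in replicate 1 (70.5) and 65 in replicate 2 (25.5). K08D12.3/rpi-2 was at rank 67 in the pooled list (95.2), 80 in replicate 1 (76.0) and 184 in replicate 2 (20.3). For both junctions the pooled and replicate ranks were of like order. The junction of htz-1, the histone variant H2A.Z, and chat-1, a partner subunit of membrane lipid flippases, was at rank 115 in the pooled list (79.8), 143 in replicate 1 (63.0) and 262 in replicate 2 (18.7). That of hrpa-1, an hnRNP A1-like RNA-binding protein, and F42A6.6 was the highest of all tandem members, at rank 57 in the pooled list (99.1), 73 in replicate 1 (80.0) and 276 in replicate 2 (18.5). The junction downstream of tbb-1, a beta-tubulin gene, had nearly equal ranks in the replicates, 713 in replicate 1 and 738 in replicate 2, with rank 534 in the pooled list. The junction of akir-1, an akirin, and dph-6, of the pathway that makes diphthamide on an elongation factor, was at rank 339 in replicate 1, 373 in replicate 2 and 257 in the pooled list.

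Other high members rested on replicate 1. Y71F9AL.9/Y71F9AL.8 was at rank 134 in the pooled list (74.9) and 84 in replicate 1 (74.5), but 15229 in replicate 2 (6.36). The junction of unc-54, the main myosin heavy chain of body wall muscle, and aex-5, a proprotein convertase, was at rank 264 in the pooled list (59.3), 251 in replicate 1 (50.6) and 16885 in replicate 2 (6.08). Downstream of mep-1, a zinc-finger protein gene, the ranks were 247 in the pooled list, 205 in replicate 1 and 19643 in replicate 2. For vha-13/Y49A3A.3, whose first gene encodes a V-ATPase subunit, the ranks were 226 in the pooled list and 116 in replicate 1, with no peak in replicate 2. These loci are high in the pooled list on the strength of 1 library. Of the 25 highest tandem members, all were within rank 339 of replicate 1 and 20 were within the 5000 highest of replicate 2.

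A pair of members, picked for mention by their values, rested on replicate 2 instead. The chaf-1/rsbp-1 junction, where chaf-1 encodes a subunit of a chromatin assembly factor, was at rank 87 in replicate 2 and 26777 in replicate 1. The fcd-2/eef-1B.2 junction was at rank 132 in replicate 2 and 13843 in replicate 1. Their pooled ranks were 2914 and 1476.

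Polymerase summits at tandem members lay past the upstream gene's end. The summit was beyond that end in 278 of 297, at a median of 162 bp downstream (quartiles 104 and 204 bp, SD 82.2 bp). Relative to the downstream start the median was 40 bp inside the downstream gene, with a wider spread (quartiles -95 and 102 bp, with negative values before the start, SD 123 bp). The summit was at or past the downstream start in 167 members (56.2%), between end and start in 111 (37.4%) and before or at the upstream end in 19 (6.4%). It was nearer the downstream start than the upstream end in 215 members and nearer the end in 79. Since summits over 250 bp from either boundary could not be members, these figures describe positions inside the window, and no test was made of them.

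The replicates often placed the summit of the same junction differently. In the 217 tandem members with a peak in both replicate lists, the replicate 2 summit minus the replicate 1 summit had a median of 4 bp and an SD of 148 bp. This is the SD of a difference between 2 summits not held to the window. It cannot be set against the spread of single positions among members. The summits were within 100 bp of each other in 116 (53.5%) and within 50 bp in 80. The medians were nearly equal, 168 bp past the upstream end in replicate 1 and 166 bp in replicate 2, with quartiles of 106 and 209 bp in replicate 1 and of 70 and 250 bp in replicate 2. At the 85 tandem members within the 5000 highest of both replicates the medians were 164 and 173 bp. At shared junctions, then, the medians differed by far less than the places of single summits. When members were chosen afresh from each replicate's 5000 highest peaks, replicate 1 gave 353 tandem members with a median of 162 bp past the upstream end, and replicate 2 gave 125 with a median of 126 bp. From the downstream start these medians were 42 bp in replicate 1 and -41 bp in replicate 2, the latter before the start. Chosen in this way, the members lay at 345 tandem junctions in replicate 1 and 125 in replicate 2. Only 56 junctions were in both, 16.2% of those of replicate 1 and 44.8% of those of replicate 2. The like overlap was not counted over all autosomal peaks.

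**Figure D2:**
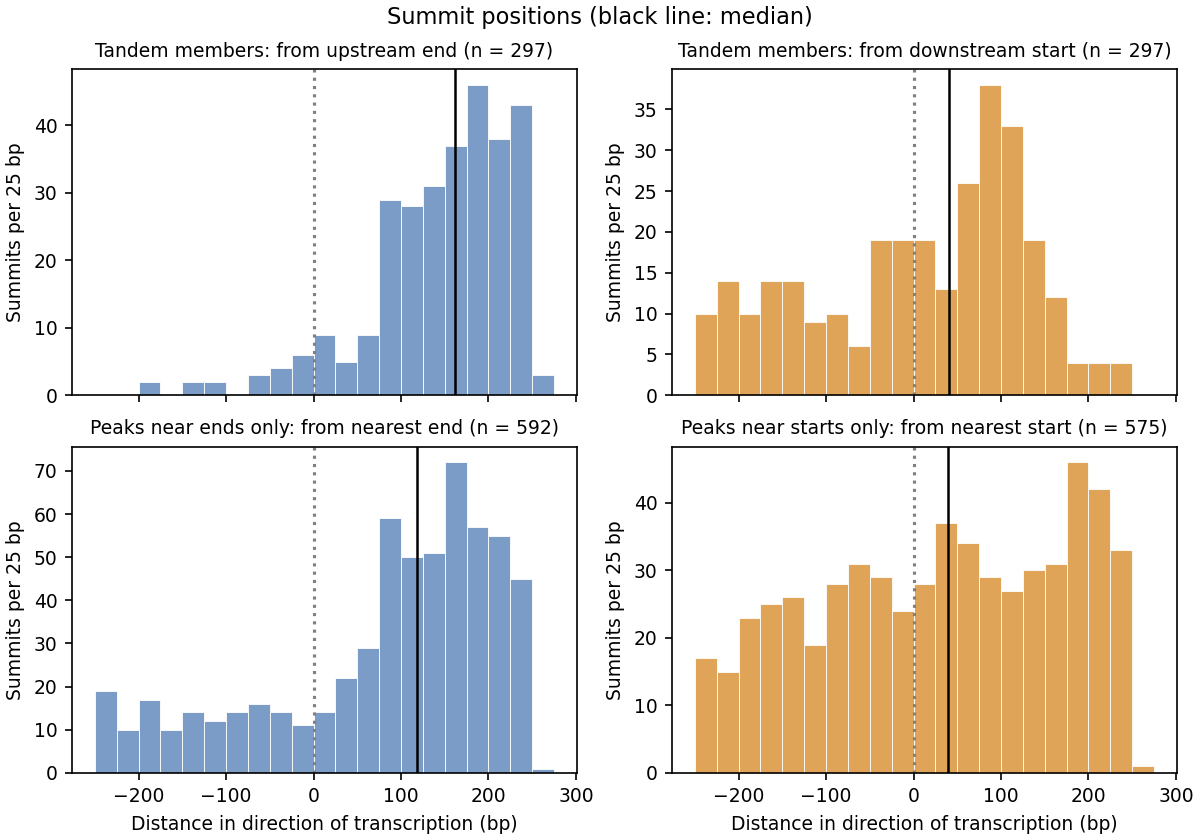
Histograms of summit position in bins of 25 bp, in the direction of transcription, with the annotated end or start at 0 and the median as a black line. Top, the 297 tandem members from the upstream end (left) and from the downstream start (right); bottom, the 592 peaks near ends only and the 575 near starts only. Tandem summits gather past the upstream end, with a median of 162 bp, as do those of peaks near ends only, with a median of 118 bp.

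Peaks with the other kind of boundary over 250 bp from the summit were set beside the members for each side. Such peaks can still lie at tandem junctions. Y73F8A.27/Y73F8A.26, at rank 833, missed the window at 251 bp and is among the peaks near starts only. A window of 500 bp gave 651 tandem members against 297, so further peaks of these sets may be of that kind. Of the 592 autosomal peaks near an end but no start, 455 (76.9%) lay beyond the end, with a median of 118 bp (quartiles 19.8 and 181 bp). The 575 near a start but no end had a median of 39 bp inside the gene and quartiles of -83.5 and 156.5 bp. The tandem members' spread around the upstream end was the narrower of their own 2 spreads. Their median from the start, taken over all gaps together, was close to that of peaks near starts only. By class of gap the members' median ran from 124 bp inside the gene to -190 bp, before it. How many of the 592 and the 575 lie at tandem junctions was not counted. The closeness may therefore in part be between peaks of the same kind. In tandem members both boundaries fix the window, so the sets are set side by side without a test.

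**Figure D3:**
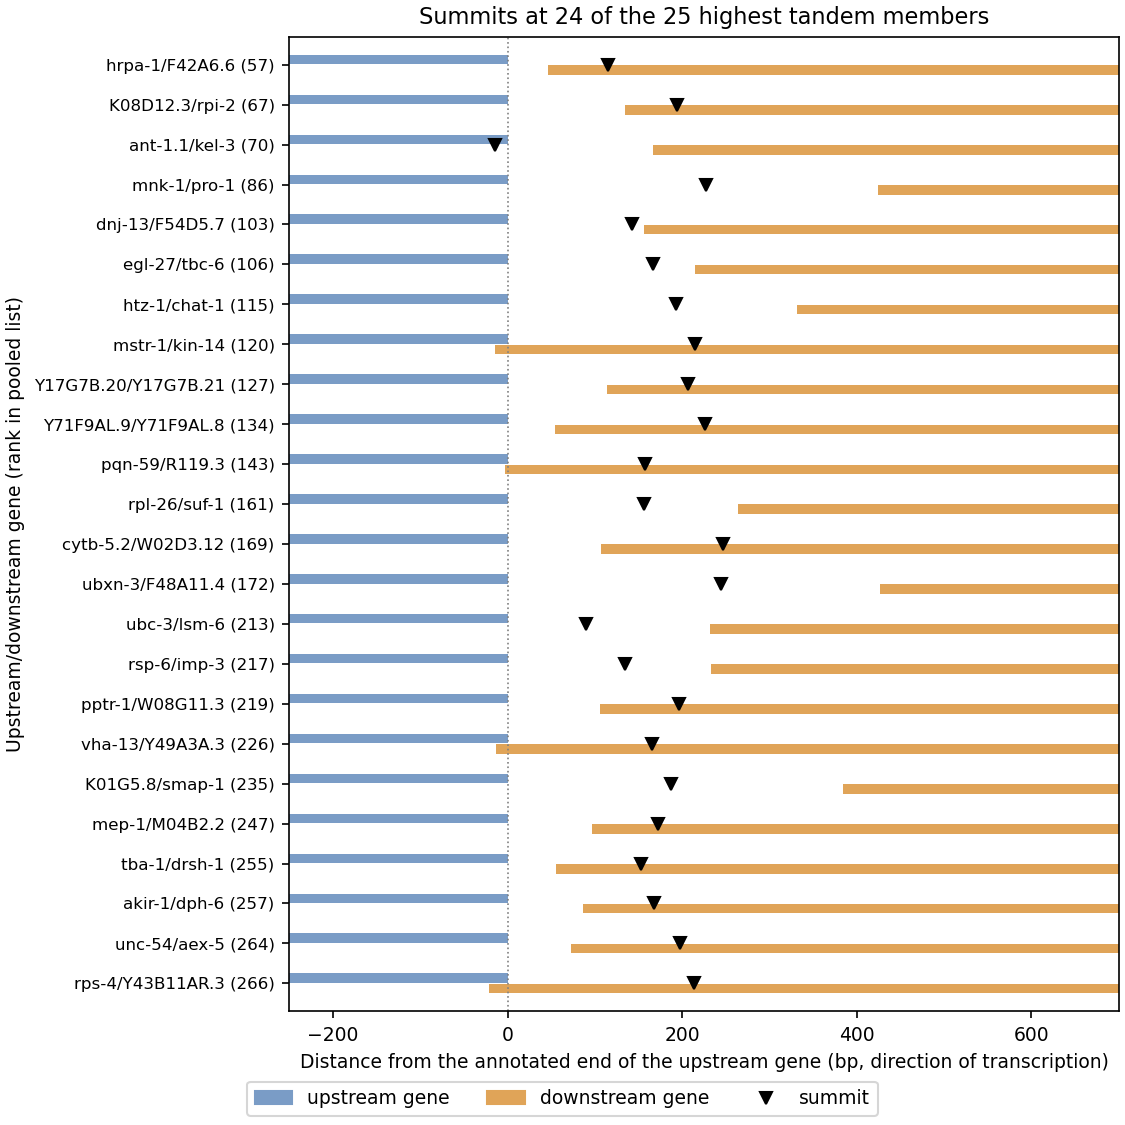
Tandem members, 24 of the 25 highest, aligned at the annotated end of the upstream gene (0 on the horizontal axis, in bp), with the upstream gene in blue, the downstream gene in orange and the summit as a black triangle; the number after each name is the rank in the pooled list. The summit is beyond the upstream end in 23 of the 24 shown, inside the downstream gene in 14 and between the genes in 9. Over all 25 the median was 172 bp past the upstream end.

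The share found in replicate 2 differed between summit positions. Members with the summit between the genes were within the 5000 highest of replicate 2 in 50 of 111 cases (45%), and those at or past the downstream start in 46 of 167 (27.5%). In replicate 1 the shares were 90.1% and 86.2%. Over all autosomal peaks the shares were 42.6% in replicate 2 and 75.7% in replicate 1. Members with the summit between the genes were somewhat higher in the pooled list. Their median signal was 34.4 and their median rank 1629, against 32.2 and 2027 for those at or past the start. The difference in shares was not tested. Among the highest, the summit of rpl-26/suf-1 (ranks 161 pooled, 152 and 2713 in replicates 1 and 2) lay 156 bp past rpl-26, a gene of the large ribosomal subunit, and -109 bp from, that is before, the start of suf-1, a subunit of the complex that cleaves pre-mRNA 3' ends. At tba-1/drsh-1 (ranks 255 pooled, 250 and 4311 in the replicates), it lay 153 bp past tba-1, an alpha-tubulin gene, and 96 bp inside drsh-1, which encodes the microRNA-processing nuclease Drosha. The distance past the upstream end was alike at these 2 junctions, whose gaps were 264 and 56 bp, and the summits were on opposite sides of the downstream start. They are examples only, since over the 25 highest tandem members the distance ran from -14 to 247 bp. In replicates 1 and 2 it was 139 and 320 bp at rpl-26/suf-1, on opposite sides of the start, and 157 and 101 bp at tba-1/drsh-1.

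Gaps of about 100 bp were the most frequent among tandem members. The gap, counted from the upstream end to the downstream start and negative where the genes overlap, had a median of 106 bp (quartiles 90 and 195 bp, range -276 to 481 bp), against a median of 153 bp (quartiles 94 and 321 bp) over all 3667 tandem neighbours. Gaps of 81 to 150 bp held 142 members (47.8%) and 30.4% of all neighbours. Of the neighbours with such a gap, 12.6% held a member, compared with 10.5% for gaps of 1 to 80 bp, 7.1% for overlapping or abutting genes, 6.56% for gaps of 151 to 250 bp and 4.1% for gaps of 251 to 500 bp. These shares are not like for like. The stretch within 250 bp of both boundaries shrinks as the gap grows, from 395 bp at a gap of 105 bp to 127 bp at a gap of 373 bp.

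For genes that did not overlap, the median distance past the upstream end varied less between classes of gap than that from the downstream start. The former was 164 bp for gaps of 1 to 80 bp, 180 bp for 81 to 150 bp, 139.5 bp for 151 to 250 bp and 156 bp for 251 to 500 bp. From the downstream start the medians were 112 bp and 73.5 bp inside the gene for the shorter gaps, and -74 bp and -190 bp, before it, for the longer. For overlapping genes the summit was a median of 82 bp past the upstream end and 124 bp inside the downstream gene. The window by itself forces part of this. With the window widened to 500 bp, the medians from the upstream end were 187.5, 239, 197 and 232.5 bp for the same 4 classes of gap, and from the start 149, 132, -7 and -145.5 bp. For overlapping genes they were then 159.5 bp from the end and 233.5 bp from the start.

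**Figure D4:**
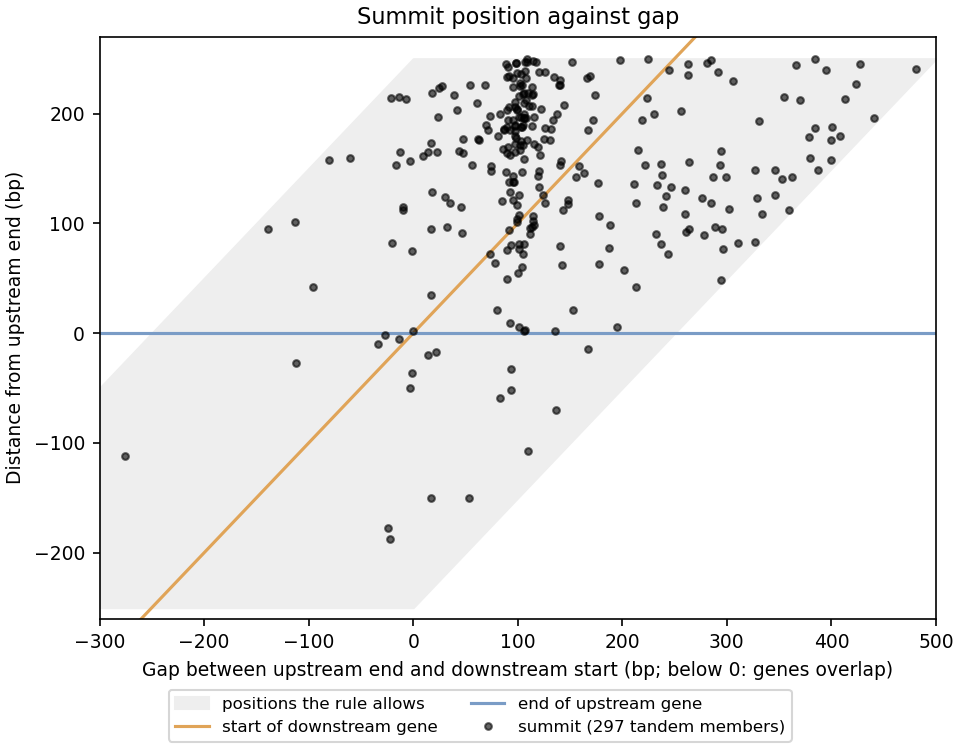
Summit position past the upstream gene's annotated end (vertical, bp) against the gap between end and start (horizontal, bp, below 0 where the genes overlap) for the 297 tandem members. The grey area is where the rule allows a summit, the blue line is the upstream end and the orange line the downstream start; the densest group lies at gaps of 81 to 150 bp, which hold 142 members.

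What lay under the summits followed from these positions. Of all 321 summits, 136 (42.4%) were in coding sequence, 113 (35.2%) outside protein-coding genes, 38 (11.8%) in introns and 34 (10.6%) in untranslated exons. Over the 4406 autosomal peaks the shares were 37.7%, 27.6%, 26% and 8.76%. Introns were thus less frequent and the space between genes more frequent among members than over all autosomal peaks, which nearness to both boundaries in part fixes. GC content over 201 bp around the summit had a median of 38.3% in tandem members, between the 37.8% of peaks near ends only and the 40.3% of peaks near starts only, and was 40.8% over all autosomal peaks. Repeated sequence touched few tandem members. In 2 of 297 under 95% of the 31-base words of the peak occurred once in the genome, against 195 of the 4406 autosomal peaks.

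The letters of a usual leader acceptor stood before the downstream start in a minority of tandem members. TTTCAG, searched on the genes' strand only and ending 0 to 10 bp before the annotated start, was found in 68 of 297 (22.9%, exact 95% interval 18.2 to 28.1%), in 14.7% of all 3667 tandem neighbours and in 14.2% of the 17242 autosomal protein-coding starts. At gaps of 81 to 150 bp members and all neighbours had like shares, 22.5% and 21.9%. At gaps of 151 to 250 bp it was 10 of 38 members (26.3%) and 9.4% of neighbours. At gaps of 251 to 500 bp it was 19 of 53 members (35.8%) and 14.2%. The shares were closer at gaps of 1 to 80 bp, with 4 of 39 members (10.3%) and 8.63% of neighbours. For overlapping or abutting genes they were 3 of 25 members (12%) and 8.64%. AATAAA, on the genes' strand within the last 50 bp of the upstream gene, was found in 149 of 297 members (50.2%, 44.3 to 56%), in 44.9% of tandem neighbours and in 47.6% of all autosomal gene ends. By gap, it was 67.9% of members and 49.8% of neighbours at 251 to 500 bp, 47.4% and 47.2% at 151 to 250 bp, and 49.3% and 40.1% at 81 to 150 bp. At 1 to 80 bp it was 43.6% of members and 47.7% of neighbours, and for overlapping or abutting genes 32% and 34.9%, so members were not above neighbours in every class. Both searches describe letters and were not tested. The median T content of the gaps was 37.9% in 263 members with a gap of at least 20 bp and 37% in all such neighbours, but at gaps of 81 to 150 bp it was lower in members, 39.6% against 42%.

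Gene runs place each junction. A run was taken as neighbouring protein-coding genes on 1 strand with gaps of at most 500 bp. A run held 290 of the 297 tandem members, and it was 2 genes long for 142, 3 for 71 and 4 for 49 of them. The member was at the first junction of its run in 207 (71.4%), and 70.5% of all junctions in such runs are first junctions. The longest run had 9 genes, with a member between rsp-6, an SR splicing protein gene, and imp-3, its next gene. That member was at rank 217 in the pooled list, 291 in replicate 1 and 1288 in replicate 2, with its summit 135 bp past rsp-6. The 290 members fell in 269 runs, and 17 runs had members at 2 or more junctions.

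Few of these runs had a second of the 5000 highest peaks within 250 bp of the annotated start of their first gene. Where transcription begins was not measured, and it need not be at that annotated start. Another peak lay within 250 bp of the annotated first start for 32 of 290 members (11%, exact 95% interval 7.67 to 15.2%). Of these peaks, 21 were lower than the member. With 500 bp allowed the share was 19.7%, so it depends on the distance searched. Counted by run, it was 30 of 269 runs with a member (11.2%) and 90 of 2309 runs without one (3.9%). At Y17G7B.20/Y17G7B.21 the first start had rank 254 and the junction rank 127. At unc-54/aex-5 the junction was at rank 264 and the start of unc-54 at rank 1260, and at hrpa-1/F42A6.6 the junction was at rank 57 and the start of hrpa-1 at rank 4975. These 3 are among the 25 highest tandem members, which makes a lower start likely. At the other 11 of the 32 the start was the higher, as at his-72/Y75B8A.33, named after its values were known, with the start of his-72 at rank 29 and the junction at rank 766.

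Genes for the cytosolic ribosome stood upstream at 13 junctions. The 14 gene lists used here were drawn up by symbol with earlier results of these data known, and each count is a description beside the 7.99% of all tandem neighbours. Cytosolic ribosomal protein genes had a member at 13 of their 45 tandem junctions (28.9%), as the upstream gene in 13 of 37 and as the downstream gene in 0 of 8. Among them were rps-4 (rank 266 pooled, 203 in replicate 1, 1456 in replicate 2), rps-10 (563, 908 and 890) and rps-5 (853, 1662 and 553), with summits 214, 167 and 200 bp past their ends. Each has replicate ranks within the 5000 highest of both lists. The lower members of the list were less secure, with rps-24 and rps-30 lacking a peak in replicate 2. Each replicate's own 5000 highest gave 12 such junctions in replicate 1 (26.7%) and 6 in replicate 2 (13.3%). Over all 3667 tandem neighbours the replicates alone gave 345 (9.41%) and 125 (3.41%), the background for every count from 1 replicate below.

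Genes for splicing factors and 3' end formation also had members. Splicing factors had a member at 11 of 42 junctions (26.2%; 12 in replicate 1 alone and 7 in replicate 2 alone), as the upstream gene in 8. They included rsp-6, described above, snr-1, an Sm core protein gene (ranks 537 pooled, 632 and 1562 in the replicates), and rsp-4, another SR protein gene (1034, 726 and 7272). At ubc-3/lsm-6, where ubc-3 encodes a ubiquitin-conjugating enzyme and lsm-6 an Sm-like protein bound to U6 RNA, the ranks were 213 pooled, 157 and 4643. The summit lay 90 bp past ubc-3. The junction after lsm-6 held a further member, at rank 4356. Of 9 junctions with a gene for mRNA 3' end formation 3 had a member, with suf-1 and clpf-1 downstream and cfim-2 upstream. In replicate 1 alone this list had 3 and in replicate 2 alone 0.

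Chaperone genes had a member at 9 of 32 junctions (28.1%). Replicate 1 alone gave 7 (21.9%) and replicate 2 alone 2 (6.25%), beside the replicates' own shares over all tandem neighbours. The highest was dnj-13/F54D5.7, after a gene for an Hsp40 co-chaperone, at rank 103 in the pooled list (81.9), 110 in replicate 1 (68.0) and 1577 in replicate 2 (12.5), with the summit 142 bp past dnj-13. After hsp-90, the cytosolic HSP90 gene, the ranks were 486, 113 and 3775. Of the 4 junctions after genes of the CCT chaperonin, which folds actin and tubulin, cct-3 was low in replicate 1 (7168) and high in replicate 2 (365), cct-2 was at 493 and 22192, and cct-8 and cct-6 had no replicate 2 peak.

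**Figure D5:**
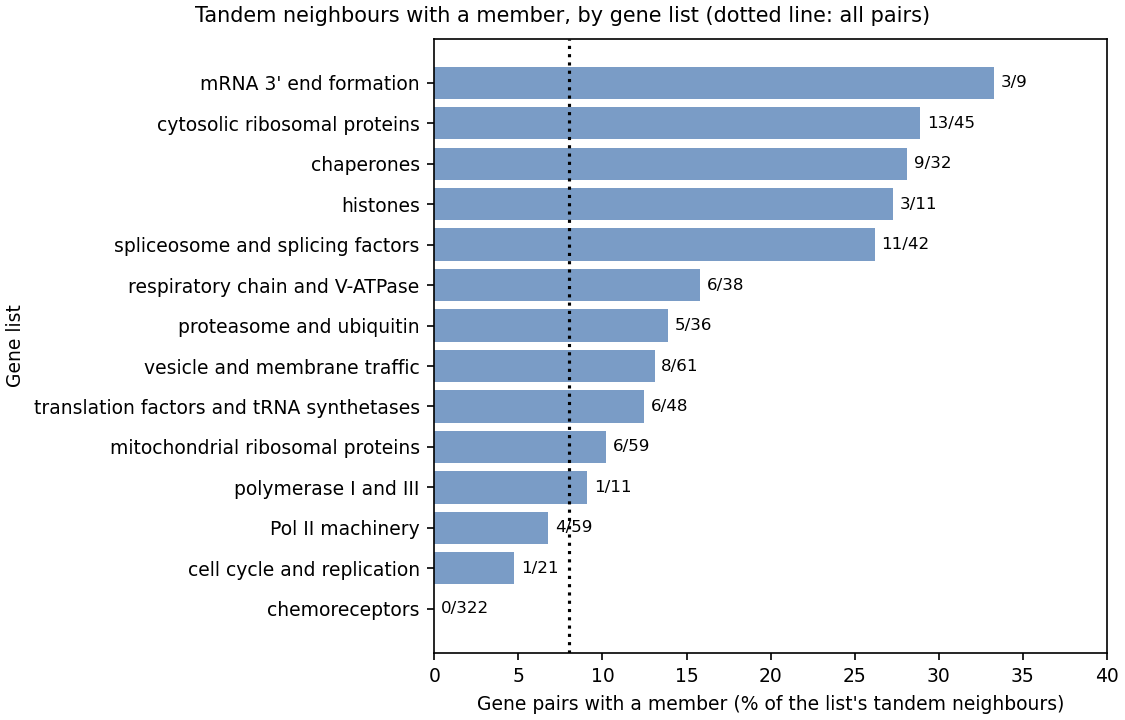
Share of tandem neighbours with a member (horizontal, percent) for each of 14 gene lists, with the counts as member junctions over all junctions of the list and a dotted line at 7.99%, the share over all 3667 pairs. No error bars are drawn because no test was made; lists such as mRNA 3' end formation (3 of 9) and histones (3 of 11) rest on few pairs.

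The other housekeeping lists were closer to the background. Members were found at 6 of 38 junctions of respiratory chain and V-ATPase genes (15.8%), 5 of 36 of proteasome and ubiquitin genes (13.9%), 8 of 61 of vesicle and membrane traffic genes (13.1%), 6 of 48 of translation factor and tRNA synthetase genes (12.5%) and 6 of 59 of mitochondrial ribosomal protein genes (10.2%). Mitochondrial ribosomal protein genes were upstream in 1 of 32 and downstream in 5 of 28. That differs from the cytosolic list, which had no downstream member, but only 8 cytosolic genes were in that place and the difference was not tested. Pol II machinery genes had 4 of 59 (6.78%), among them rpb-9/lmtr-2, at rank 317 in the pooled list and 244 in replicate 1 with no peak in replicate 2. Replicate 1 alone gave 11 such junctions and replicate 2 alone 0. Polymerase I and III genes had 1 of 11 and cell cycle and replication genes 1 of 21. Chemoreceptor genes, which are expressed in small numbers of sensory neurons, had 0 of 322 junctions. If a count of 0 is taken to allow up to 3, the share could be up to 0.932%. That is a rough limit and not the exact interval used for other shares. The replicates alone gave 1 and 2. Over all lists, 70 of the 293 junctions had a listed gene. The same share over all tandem neighbours was not counted, so this count cannot say whether listed genes were more frequent among members.

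Members were spread over all autosomes. There were 67 on chromosome I, 58 on II, 68 on III, 74 on IV and 54 on V. The share of tandem neighbours with a member was 10.4% on IV, 10.1% on III, 9.35% on I and 7.21% on II, and 4.6% on V. As a share of each chromosome's own autosomal peaks, members were 8.97% on IV, 7.33% on III, 7.19% on V, 6.62% on I and 6.52% on II, so V was lowest by the first measure only.

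The members that were not tandem were led by histone genes. Of the 19 peaks at 1 short gene, 9 were at replication-dependent core histone genes, whose messages are short and lack introns. The gene length of the 19 had a median of 312 bp (range 42 to 480 bp). His-60 was the highest of all 321 members, at rank 47 in the pooled list (111.7), 41 in replicate 1 (96.7) and 149 in replicate 2 (21.2). At his-32 the ranks were 53, 138 and 14, and at his-2 they were 128, 233 and 142. Both replicates placed these 3 among their highest. Histone genes have near-identical copies, and reads from one copy can be placed on another. Between 8.12% and 85.9% of the 31-base words in the 9 histone peaks occurred once in the genome, so the height at any 1 copy is uncertain, and his-7, with 8.12%, had no replicate 1 peak. In the 10 other peaks at short genes at least 95.9% of the words were unique. Unlike tandem members, the 19 were ranked better in replicate 2 more often, in 12 against 7. Their GC content was also higher, with a median of 50.7%.

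At T28D9.11 and B0348.10, 2 short genes known by sequence names, the replicates were far apart, with ranks 30 and 57 in replicate 2 and 7202 and 20351 in replicate 1. Both were picked for mention by their values. Of the nested pair of peaks, K11D12.14/pqn-51 was at rank 307 in the pooled list, 290 in replicate 1 and 175 in replicate 2, and Y71G12A.5/tub-2 at rank 573 and 533 with no replicate 2 peak. Of the 3 peaks between genes on opposite strands the highest, at xpo-1, an exportin gene, and ZK742.6, was at rank 1462 in the pooled list, 1236 in replicate 1 and 16924 in replicate 2. The others, F53F4.15/F53F4.16 and faxc-1/tric-1B.1, were at ranks 4085 and 4353.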

How the data were processed

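AMA-1 ChIP-seq of N2 late embryos was deposited as peak lists for 2 biological replicates of 1 group. As recorded in the deposited notes, the authors made each replicate list from its own alignments plus 1 further file, the pooled list from both replicates' alignments, and the IDR list from these 3. The deposited signal value is a score of unstated scale, used to rank and describe peaks, and the summit is the authors' deposited offset (other values in those files were not used). The aligner, caller, thresholds and read numbers were not given in the sources used here. Depth is unknown and intervals (Clopper-Pearson) cover counting error only. No value columns were left unmatched (0).

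Genes came from Ensembl release 115 on the WBcel235 assembly, and sequences from RefSeq's copy of it. Python 3.11.15, pandas 2.3.3, numpy 2.4.6, scipy 1.17.1 and matplotlib 3.10.9 were used. The assignment of summits to genes was checked on made-up gene models. With 1 group no test was made. The members and gene lists were chosen with earlier results of these data known. The genes named are from the 25 highest tandem members, the 5 highest of each other class, up to 4 of each list, the printed gaps and the threshold cases. rps-24, rps-30, rsp-4, lsm-6 with its next gene, cct-3, cct-6, cct-8 and the members said to be picked by their values fall outside that rule. The values of 1 of the 25 are not reported here. Alternatives were other list lengths, windows, gene boundaries and matching rules, and each replicate alone.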

Additional observations from a re-analysis of the deposited data

How the results depend on the processing

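The number of members follows the chosen limits. It was 197 with the 2500 highest pooled peaks, 504 with the 10000 highest, 44 in the IDR list, 38, 99 and 729 with windows of 100, 150 and 500 bp, 78 with coding sequence boundaries, and 148 to 380 with either replicate left out. The tandem count was 180, 462, 37, 36, 93, 651 and 41 in the same order, and 125 to 353 with either replicate left out. The share with a peak among the 5000 highest of both replicates was 24.3% when overlap had to cover at least 50% of the peak, 18.1% with replicate summits within 100 bp and 17.1% with the 2500 highest of each replicate. The median gap was 90, 101 and 115 bp with windows of 100, 150 and 500 bp and 108 to 112 bp with either replicate left out. The share nearer the upstream end was 41.5% with coding sequence boundaries and 24.1 to 37.6% with either replicate left out. A first start within 500 bp gave 19.7% of members a further peak. Chosen after seeing the data, the counts with either replicate left out were 6 to 12 for cytosolic ribosomal proteins, 7 to 12 for splicing factors, 2 to 7 for chaperones, and 2 each time for histones. In 21 cases, some of them given above, the result was taken as not moved. A count then stayed within 1.5 times of the reported one. A share or median moved by less than its interval or the SD between replicates (2.83 bp for the gap). The causes were not tested. No paired analysis was possible because both replicates belong to 1 group. Depth is unknown and replicate summits differ by an SD of 148 bp, which limits any statement on where a summit lies.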
